A study of Mus musculus with 8 samples.

Results

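The genes described here are those of the fibroblast growth factor (FGF) and of the transforming growth factor beta and bone morphogenetic protein (TGF-beta/BMP) pathways, measured in the normal cochlea of CBA/CaJ mice. They were chosen by symbol alone: a probe set was taken when the platform annotation named 1 gene whose symbol belongs to the FGFs, FGF receptors, BMPs, GDFs, TGF-beta ligands and receptors, activin subunits and receptors, SMADs, latent TGF-beta binding proteins or the antagonists noggin, chordin, gremlin and follistatin. This took 169 of 45101 probe sets and 80 of 18194 genes. CBA/CaJ is an inbred strain used in hearing research for its good hearing. Total RNA came from the soft tissue of the cochlea (organ of Corti, modiolus and spiral ligament) after urethane (300 mg/kg, i.p.) and perfusion with saline, on Mouse Genome 430 2.0 arrays. The 8 mice, with the ears of each pooled onto 1 array, form 1 group of normal cochlea; no mouse carried a further treatment or an allele named in the labels, and age and sex are not given there. The design therefore holds no contrast between groups, and what can be described is which members gave a signal and how they varied between animals.

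FGFs are secreted proteins that bind receptor tyrosine kinases, and in the inner ear they induce the otic placode and later pattern the sensory epithelium. TGF-beta, activin and BMP dimers bring together type I and type II serine/threonine kinase receptors, which phosphorylate receptor SMADs. These then enter the nucleus with the common SMAD, while inhibitory SMADs and secreted antagonists limit the signal. A gradient of BMP across the cochlear duct and FGF signalling through Fgfr3 are known for their part in setting up hair cells and supporting cells before birth.

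Values are MAS5 signals in arbitrary units, given as mean ± SD over the 8 mice (SD, n = 8) or as the lowest, median and highest mouse; they describe each probe set against background and do not rank genes by amount of RNA. A gene, read by its brightest probe set, was called detected when its signal passed the background threshold on all 8 arrays. That threshold was taken on each array from 113 genes not looked for in a cochlea (olfactory and vomeronasal receptors, genes of unrelated organs), as the 95th percentile of their 142 probe sets. It ranged from 39.7 to 64.3, and 4 of those 113 genes (3.54%) passed on all arrays. The arrays correlated at r = 0.945 to 0.960 with each other across probe sets, and mouse 1 stood apart: it was the lowest animal for 23.9% and the highest for 33.5% of all detected genes. Marker genes of fibrocytes (7 of 7), stria vascularis (8 of 8), supporting cells (8 of 9) and hair cells (5 of 7) were detected, as were 3 of 8 central nervous system genes. Within the central nervous system list, mice 1 and 6 stood above the others for Mog, a myelin gene of oligodendrocytes (314.5 and 356, at most 28.9 elsewhere). They did so for Olig1 (87.0 and 89.4, at most 28.9), and both genes passed the threshold on these 2 arrays only. The same 2 mice were highest for the astrocyte gene Gfap (805 and 1292, at most 414.5). Cbln1 and Pcp2, also detected, did not set both mice apart. Cbln1 was highest in mouse 1 (3114) but 2473 in mouse 6, below mouse 2 (2859). Pcp2 was highest in mouse 7 (1153). Olig2 and Opalin were above background on 0 arrays. The part of such tissue in the values of mice 1 and 6 was not tested. Mouse numbers are names only, and fewer cells of a type cannot be told apart from less RNA per cell in this mixed tissue.

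Of the 80 members 47 were detected, which is 58.8% beside 64.4% of all genes. A further 9 passed the threshold on some arrays only and 24 on none. The FGF side gave 12 detected genes of 26 and the TGF-beta/BMP side 32 of 50; the other 4 of the 80 share a symbol with the pathways but not their signalling role. Receptors and SMADs were nearly all detected, whereas most ligands, above all the secreted FGFs at 4 of 18, were not. Of the 47, 7 were under 1.5 times the threshold on at least 1 array. For 17 members a probe set was detected while a further probe set of the same gene was above background on no array. At the 99th percentile of the background probe sets in place of the 95th, 35 of the 47 were still detected, and so 35 of 80 beside 48.5% of all genes; the 12 lost were Acvr1c, Bmp1, Bmp2, Fgf11, Fgf13, Fgf14, Fgf18, Fgf4, Gdf10, Inhba, Ltbp4 and Smad6.

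**Figure D1:**
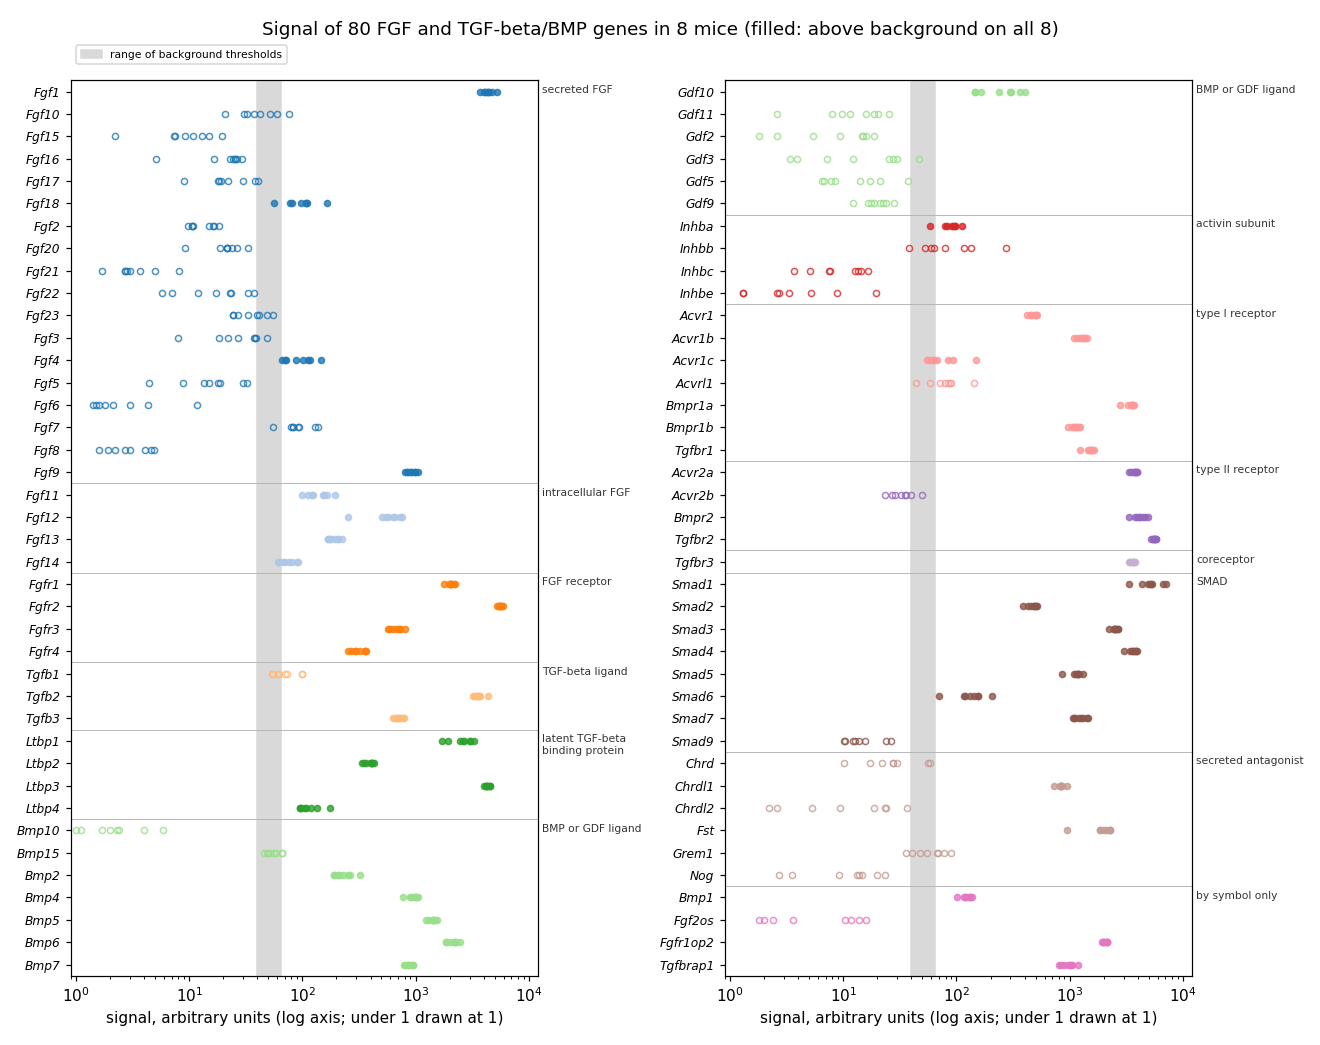
Signal of the 80 members in the 8 mice on a log axis, in arbitrary units, 1 point for each mouse, ordered by role. Filled points are the 47 members above background on all arrays, open points the others, and the grey band is the range of the array thresholds (39.7 to 64.3); most secreted FGFs lie in or left of the band, whereas all FGF receptors lie right of it.

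The 2 genes taken as markers of the group, Tgfb2 and Fgfr3, were both read well above background, and their promoters are shown with those of 3 members that the sections below turn on: Fgf12 and Gdf10, which differed most between mice, and the inhibitory Smad6. RefSeq promoter sequences (GRCm38.p6, 250 bases before to 50 after a transcript start, 5′ to 3′ on the strand of the gene) were available for 57 of the 80 genes. The most upstream start is shown for Tgfb2 (chr1:186705940-186706239, minus strand), Fgfr3 (chr5:33721474-33721773, plus strand), Fgf12 (chr16:28753194-28753493, minus strand), Gdf10 (chr14:33923337-33923636, plus strand) and Smad6 (chr9:64022010-64022309, minus strand). Capitals mark matches on either strand to 4 motifs: the palindromic SMAD element GTCTAGAC, the GC-rich SMAD element GGCGCC, the SMAD half-site form CAGACA and the TATA box TATAAA.
Tgfb2: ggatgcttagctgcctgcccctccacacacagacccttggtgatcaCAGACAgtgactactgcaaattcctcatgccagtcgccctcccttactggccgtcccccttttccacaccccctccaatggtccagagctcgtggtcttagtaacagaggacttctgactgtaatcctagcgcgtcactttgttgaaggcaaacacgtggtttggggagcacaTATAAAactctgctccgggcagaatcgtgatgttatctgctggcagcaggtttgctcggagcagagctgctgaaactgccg
Fgfr3: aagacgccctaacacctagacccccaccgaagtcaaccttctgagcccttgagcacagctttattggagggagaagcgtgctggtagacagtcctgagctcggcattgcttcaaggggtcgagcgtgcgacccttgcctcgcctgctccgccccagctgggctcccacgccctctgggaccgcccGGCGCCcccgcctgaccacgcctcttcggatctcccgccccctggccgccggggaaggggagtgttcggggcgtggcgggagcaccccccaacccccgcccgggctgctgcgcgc
Fgf12: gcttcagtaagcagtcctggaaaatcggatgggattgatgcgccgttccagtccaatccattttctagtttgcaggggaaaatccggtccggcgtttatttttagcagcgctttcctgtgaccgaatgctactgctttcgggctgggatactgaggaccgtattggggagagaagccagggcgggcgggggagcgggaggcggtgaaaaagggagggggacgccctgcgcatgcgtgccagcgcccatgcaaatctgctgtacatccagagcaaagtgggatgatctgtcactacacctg
Gdf10: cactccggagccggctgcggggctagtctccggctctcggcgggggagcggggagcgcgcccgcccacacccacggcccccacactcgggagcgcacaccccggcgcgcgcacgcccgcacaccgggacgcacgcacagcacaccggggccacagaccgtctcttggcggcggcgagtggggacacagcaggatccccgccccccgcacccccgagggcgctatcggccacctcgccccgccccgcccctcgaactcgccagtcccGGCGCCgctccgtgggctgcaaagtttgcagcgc
Smad6: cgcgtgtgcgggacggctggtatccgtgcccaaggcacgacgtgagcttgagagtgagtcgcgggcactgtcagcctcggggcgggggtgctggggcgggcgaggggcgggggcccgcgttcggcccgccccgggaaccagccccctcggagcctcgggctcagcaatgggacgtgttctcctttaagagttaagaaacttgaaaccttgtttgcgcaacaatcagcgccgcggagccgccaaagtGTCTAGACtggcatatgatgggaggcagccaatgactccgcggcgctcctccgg
Smad6 held GTCTAGAC, and it was the only member to do so among the 75 member promoters; 0.213% of all 32851 promoters hold it. Tgfb2 held TATAAA 31 bases before its start, as 13.6% of all promoters hold this motif, and CAGACA, found in 21.0%. GGCGCC, found in 11.9% of all promoters and 25.3% of member promoters, was present in Fgfr3 and Gdf10. The 75 member promoters belong to 57 genes, and whether their shares differ from those of all promoters was not tested. None of the 4 motifs was in the Fgf12 window shown, which is 1 of 4 listed starts of that gene. The windows differ in CpG content, with 10 CG pairs in that of Tgfb2 and 42 in that of Gdf10. These matches are descriptions of sequence and not of binding.

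Among the 18 secreted FGFs, Fgf1, Fgf9, Fgf4 and Fgf18 were detected. Fgf1, acidic FGF, which binds every FGF receptor, measured 4373 ± 469, with a lowest signal of 3731 in mouse 6, a median of 4329 and a highest of 5265 in mouse 1. Its second probe set was likewise lowest in mouse 6 (524) and highest in mouse 1 (697). The third, also detected but dimmer, did not repeat this, at 104 in mouse 6 and 74.9 in mouse 1. Fgf9, which acts from otic epithelium on the surrounding mesenchyme in the embryo, measured 920.2 ± 86.5 and was above background by both of its probe sets. The remaining pair lay close to background. Fgf18, a ligand known from cartilage and bone, ranged from 56.2 in mouse 8 through a median of 102 to 166 in mouse 1, and its SD of 0.46 (log2) was the largest among the 4. Fgf4, an early embryonic ligand, ranged from 65.6 to 145 by 1 of its 4 probe sets, and the other 3 were above background on 0 to 2 arrays.

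Several secreted FGFs with known roles in the embryonic ear did not reach the threshold on every array. Fgf8, made by inner hair cells and known as a ligand for Fgfr3, measured 3.12 ± 1.26, Fgf20, of the sensory progenitors, 21.9 ± 6.80, and Fgf3, an otic inducer, 29.8 ± 13.3, each above the threshold on 0 arrays. Fgf2, basic FGF, measured 13.4 ± 3.36 on 0 arrays as well. Fgf10, a further otic inducer, was above it on 2 arrays, with 20.6 in mouse 6 and 76.4 in mouse 8. Fgf7, keratinocyte growth factor, passed on 7 arrays and fell just short in mouse 6 at 54.9. The hormone-like Fgf15, Fgf21 and Fgf23 were among the 12 of 18 that passed on none, as were Fgf5, Fgf6, Fgf16, Fgf17 and Fgf22.

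All 4 intracellular FGFs were detected; these proteins lack a secretion signal and bind voltage-gated sodium channels in neurons. Fgf12 measured 582 ± 158, Fgf13 190.3 ± 21.1, Fgf11 140.4 ± 30.6 and Fgf14 75.0 ± 11.9. Fgf14 was read by 1 of its 4 probe sets, at 60.8 to 92.0, close to the thresholds. Fgf12 was set apart by mouse 6. Its signal there was 253, against 507.5 to 762 in the other 7 mice, and its other 2 probe sets gave 173 against 474 to 819 and 237 against 446 to 691. All 3 probe sets thus placed mouse 6 below every other animal, with no overlap.

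Fgf12 was set against the neuronal genes over the 8 mice. A neuronal score, the mean log2 deviation of 17 detected marker genes of 19 measured, was 0.47 in mouse 1, 0.34 in mouse 4, -0.18 in mouse 3 and -0.90 in mouse 6, and the summed signal of the list ran from 19586 in mouse 6 to 45346 in mouse 1. Fgf12 gave r = 0.98 with it (Spearman rho 0.98, exact permutation p = 0.000149, two-sided, 8 mice), which did not pass the threshold after Benjamini-Hochberg adjustment over 11696 genes (adjusted exact p = 0.0645; 0.0645 to 0.132 over the settings tried). Without mice 1 and 6, the farthest from the median score, r was 0.97. The other intracellular members gave r = -0.17 for Fgf11 (rho -0.12), -0.14 for Fgf13 (rho 0.10) and -0.52 for Fgf14 (rho -0.43), with adjusted exact permutation p of 0.889, 0.918 and 0.652; without mice 1 and 6 r was 0.10, 0.15 and 0.19.

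Fgf1 and the coreceptor gene Tgfbr3 had the next smallest exact p with the neuronal score, and neither passed after adjustment. Fgf1 gave r = 0.88 (rho 0.98, exact permutation p = 0.00451, adjusted 0.256) and r = 0.86 without mice 1 and 6. Tgfbr3, betaglycan, which presents TGF-beta2 to its receptors, gave r = -0.88 (rho -0.90, exact permutation p = 0.000794, adjusted 0.127) and r = -0.80 without these mice. Its signal differed little between animals, at 3378 in mouse 1, a median of 3630 and 3818 in mouse 6. With arrays scaled to a common median its r was -0.65 (adjusted exact permutation p = 0.752). In all, 0 of the 47 members passed after adjustment, beside 0.0513% of all detected genes, and 6 (12.8%) had an unadjusted exact p under 0.05, beside 8.50% of all genes tested; whether neuronal RNA content has a part in these values was not tested.

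**Figure D2:**
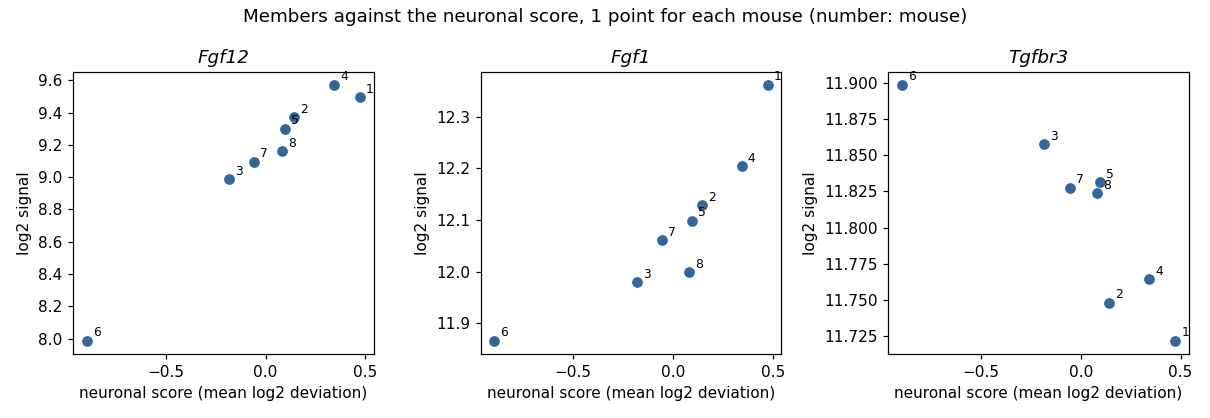
Log2 signal of Fgf12, Fgf1 and Tgfbr3 (vertical) against the neuronal score, the mean log2 deviation of 17 neuronal genes (horizontal), 1 numbered point for each of the 8 mice. Mouse 6 has the lowest score (-0.90) and mouse 1 the highest (0.47); Fgf12 and Fgf1 are lowest in mouse 6, where Tgfbr3 is highest.

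The same exact test was run with 5 further scores, for Schwann cell, osteoblast, neutrophil, endothelial and skeletal muscle genes, and 0 members passed with any of them after adjustment, beside 0% of all detected genes. Unadjusted exact p values were under 0.05 for 1, 5, 1, 4 and 2 members in that order (2.13%, 10.6%, 2.13%, 8.51% and 4.26%), beside 3.10%, 6.18%, 3.82%, 7.48% and 2.87% of all genes tested. The FGF receptor gene Fgfr1 gave the smallest exact permutation p with the osteoblast score (r = 0.83, rho 0.79, p = 0.00255, adjusted 0.674), with r = 0.64 without mice 3 and 6. The BMP antagonist Chrdl1 gave r = -0.83 with the endothelial score (rho -0.74, exact permutation p = 0.00397, adjusted 0.637) and r = -0.69 without mice 2 and 3. With the Schwann cell score Fgf12 gave rho 0.98 as well. There r was 0.41 (exact permutation p = 0.250, adjusted 0.995), and 0.72 without mice 3 and 4. Fgf1 gave rho 0.93 with that score. Its r was 0.57 (exact permutation p = 0.138, adjusted 0.995), and 0.97 without these mice. The high rank correlation of both genes was therefore not particular to the neuronal score.

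All 4 FGF receptors were detected. Fgfr2, a receptor required for morphogenesis of the otic vesicle, measured 5605 ± 210.4 with 5234 in the lowest mouse and 5905 in the highest, a log2 SD of 0.05. Fgfr1, needed for the auditory sensory epithelium, measured 2039.7 ± 139 (log2 SD 0.10), and Fgfr4 315 ± 42.7 (0.20). Fgfr3, whose loss in mice disturbs the pillar cells and hearing, measured 676 ± 83.8, with 572 in mouse 4, a median of 685 and 814 in mouse 7 (0.18). The second probe set of Fgfr3 was above background on 4 of 8 arrays only.

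Of the TGF-beta ligands, Tgfb2 and Tgfb3 were detected. Tgfb2, which is required for normal inner ear development in mice, measured 3622 ± 350.3, with 3251 in mouse 3, a median of 3572 and 4413 in mouse 1. Mouse 1 alone made most of this spread: the other 7 lay between 3251 and 3676, and the log2 SD fell from 0.13 to 0.06 without it. The other 3 probe sets of Tgfb2, also detected, did not have their highest value in mouse 1. The second brightest had its lowest value there (2064, with 2080 to 2402 elsewhere). The brightest pair correlated at r = -0.42 (rho -0.29, exact permutation p = 0.844, one-sided, adjusted 0.953) and at r = -0.10 without mice 1 and 3. Tgfb3 measured 710.3 ± 55.2. Tgfb1, a ligand abundant in immune cells, lay near the thresholds at 53.4 to 99.4 and passed on 6 arrays.

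The 4 latent TGF-beta binding protein genes were all detected. Ltbp3, which holds latent TGF-beta in the matrix, measured 4317 ± 202 with a log2 SD of 0.07. Ltbp1, of like function, varied more, from 1703 in mouse 1 through a median of 2664 to 3266 in mouse 3. Ltbp2, a microfibril protein of this family that does not bind TGF-beta, measured 389 ± 33.0, and Ltbp4 116 ± 27.1 with its highest value, 174.5, in mouse 1.

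Among the 13 BMP and GDF ligands 6 were detected: Bmp2, Bmp4, Bmp5, Bmp6, Bmp7 and Gdf10. Bmp6, best known for its control of iron through hepcidin, measured 2142 ± 216, Bmp5 1409 ± 98.3 and Bmp7 875 ± 58.2. Bmp4, which marks the outer side of the developing cochlear duct, measured 952 ± 87.7, lowest in mouse 1 at 777 and between 898 and 1054 elsewhere. Bmp2, known from bone formation, ranged from 188.5 in mouse 4 through 219.8 to 325 in mouse 6. Gdf10, a relative of the BMP antagonist Bmp3, had the largest spread of any detected member (log2 SD 0.60). It measured 361 in mouse 1, 407 in mouse 3, 304 in mouse 5 and 298 in mouse 6, then 239.8 in mouse 4 and 144 to 163 in mice 2, 7 and 8. With the osteoblast score it gave r = 0.54 (rho 0.48, exact permutation p = 0.169, adjusted 0.940), r = 0.23 without mice 3 and 6, and its exact p was larger with each of the other 5 scores. Gdf9, of the oocyte, and Bmp10, of the heart, were on no array above background, as were Gdf2, Gdf3, Gdf5 and Gdf11, while the oocyte gene Bmp15 passed on 6 arrays at 45.9 to 66.4.

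Of the 4 activin subunit genes Inhba was detected, and Inhbc and Inhbe passed on no array. Inhba, the subunit of activin A, measured 89.2 ± 15.8, with 58.8 in mouse 1 and 79.8 to 113 in the others. Inhbb, of activin B, was above background on 6 arrays. It measured 272 in mouse 5, 134 in mouse 6, 117 in mouse 3 and 38.4 to 78.7 in the other 5. Its second probe set, at 0.8 to 17.0, was above background on 0 arrays. Acvr1c, the type I receptor gene known from adipose tissue, was likewise highest in mouse 5, at 148, then 92.4 in mouse 6 and 84.2 in mouse 3, with 54.5 to 67.8 in the rest. Its other 2 probe sets were also highest in mouse 5, at 52.0 each, but this is under the threshold of that array (54.2). They were above background on 1 array, that of mouse 8, and on 0 arrays.

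Adipocyte genes, a list chosen after these values were seen, were highest in the same mouse. Their summed signal over 6 measured genes was 8637 in mouse 5, 1656 in mouse 6, 1190.0 in mouse 3 and 416 to 622 in the others, and 2 of the 6 were detected. The fat cell hormone gene Adipoq measured 1026 in mouse 5 and at most 234 elsewhere, and Fabp4, a fatty acid carrier, 5517 and at most 914. Lep, the leptin gene, was above background on no array. The skeletal muscle score was also highest in mouse 5, at 1.99, with 3 of 10 muscle genes detected. It was next highest in mouse 3, at 0.42, and lowest in mouse 6, at -0.79. Acvr1c was positively correlated with this score as well, and the relation did not pass after adjustment. It rests largely on mouse 5, where both were far highest. In mouse 6, where the score was lowest, Acvr1c was next highest (92.4). The osteoblast score, with 7 of 7 genes detected, was above 0 in these 3 mice only, at 0.44 in mouse 5, 0.59 in mouse 6 and 0.58 in mouse 3; Acvr1c gave r = 0.72 with it (rho 0.67, exact permutation p = 0.0349, adjusted 0.778; r = 0.77 without mice 3 and 6). With the neutrophil score Acvr1c gave r = 0.66 (rho 0.90, exact permutation p = 0.0762, adjusted 0.938; r = 0.57 without mice 1 and 7). The part of fat, muscle, bone or blood cells in the Inhbb and Acvr1c values was not tested.

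**Figure D3:**
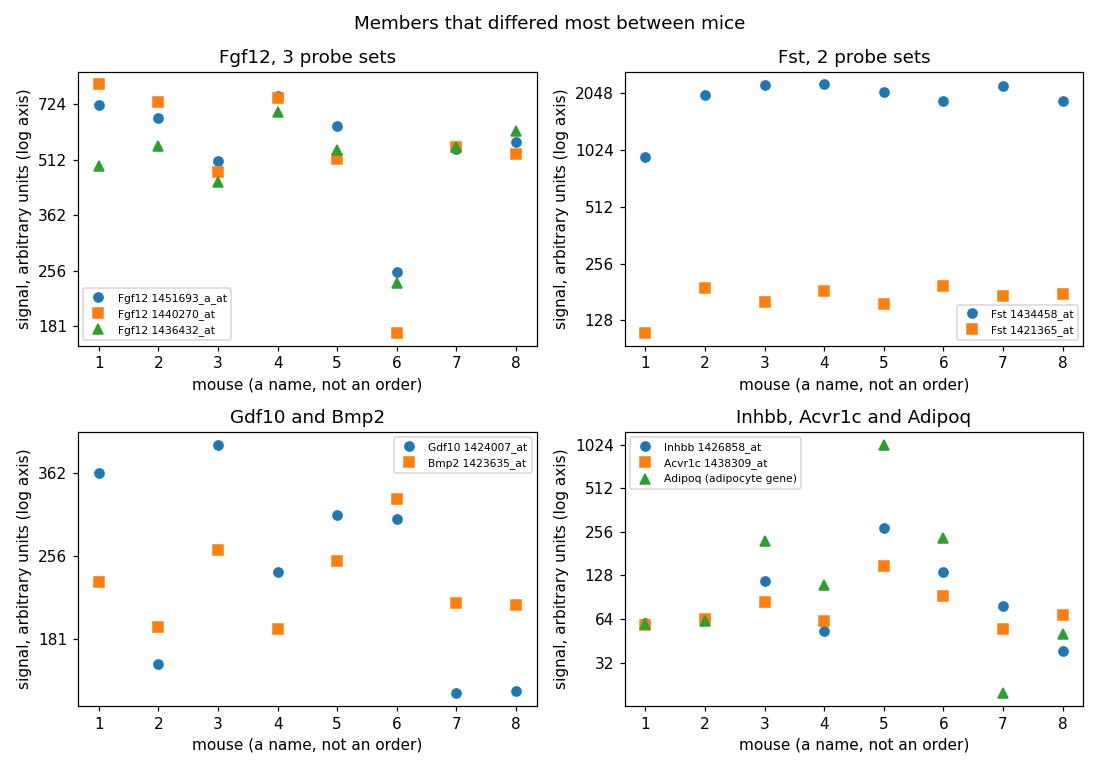
Signal on a log axis, in arbitrary units, by mouse (numbers are names) for Fgf12 by 3 probe sets, Fst by 2 probe sets, Gdf10 with Bmp2, and Inhbb with Acvr1c and the adipocyte gene Adipoq; each point is 1 array. Fgf12 is lowest in mouse 6, Fst in mouse 1, and Inhbb (272) and Acvr1c (148) are highest in mouse 5 together with Adipoq (1026).

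Receptors of the TGF-beta/BMP family were detected for 6 of 7 type I and 3 of 4 type II genes and for the coreceptor. Type II receptors bind ligand and activate the type I chain. Of these Tgfbr2 measured 5578 ± 192 with a log2 SD of 0.05, the smallest among the 47, Acvr2a 3701 ± 213 (log2 SD 0.09) and Bmpr2 4173 ± 496 (0.17), while Acvr2b passed on 1 array only. Of the type I receptors Bmpr1a measured 3443 ± 285, Tgfbr1 1510 ± 122, Acvr1b 1271 ± 112, Bmpr1b 1121 ± 87.4 and Acvr1 473 ± 31.4. Acvrl1, an endothelial receptor, passed on 7 arrays, with 44.1 in mouse 3 and 143 in mouse 5. Endothelial marker genes were detected for 8 of 10.

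Mouse 1 was the lowest animal for 6 of these 10 detected receptors, namely Bmpr1a, Bmpr1b, Tgfbr1, Acvr2a, Bmpr2 and Tgfbr3, and for 14 of the 47 members (29.8%), beside 23.9% of all detected genes. Bmpr1a, a BMP receptor, gave 2798 there, and its other values lay between 3306 and 3673. The second brightest of its 6 probe sets had its lowest value in mouse 3 (2912). The others were lowest in mouse 1, as in 1 that read 1090.1 there and 1612 to 2469 elsewhere, though 1 of them was above background on 0 arrays. For Tgfbr1 the signal was 1241 in mouse 1, and the other 7 mice lay between 1461 and 1648. Its other 2 probe sets were lowest in mouse 1 as well, but 1 of them was above background on 0 arrays. The detected pair correlated at r = 0.40 (rho 0.24, exact permutation p = 0.168, one-sided, adjusted 0.363), and r was -0.74 without mice 1 and 3. With arrays scaled to a common median, 12 of the 47 members (25.5%) and 5 of the 10 receptors were lowest in mouse 1, beside 25.9% of all detected genes.

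Of the SMADs 7 of 8 were detected. Among the receptor SMADs of the BMP branch, Smad1 measured 5254 ± 1203 and Smad5 1142 ± 136, and Smad9 was above background on no array. Smad1 ranged from 3331 in mouse 1 through 5153 to 7129 in mouse 3 by its brightest probe set but only from 1811 to 2454 by the next, and the pair correlated at r = 0.25 (rho 0.21, exact permutation p = 0.276, one-sided, adjusted 0.497; r = -0.59 without mice 1 and 3). Smad3 and Smad2, of the TGF-beta and activin branch, measured 2514 ± 149 and 468 ± 42.7. Smad4, the common partner of both branches, measured 3617 ± 288.

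The inhibitory SMADs, which are themselves switched on by the pathway, were both detected. Smad7 measured 1245 ± 150.4, with 1072 in mouse 5, a median of 1234 and 1462 in mouse 6. Smad6, whose promoter holds the palindromic SMAD element shown above, ranged from 70.6 in mouse 4 through 137 to 207 in mouse 7, with a log2 SD of 0.45 at a signal near background.

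Of the 6 secreted antagonists, Fst and Chrdl1 were detected. Fst, follistatin, binds activins and keeps them from their receptors. Its signal was 939.5 in mouse 1, and the other 7 mice lay apart at 1867 to 2286, and its second probe set was also lowest there, at 109 against 156 to 194. The pair of probe sets correlated at r = 0.82, but rho was 0.02 (exact permutation p = 0.107, one-sided, adjusted 0.274) and r was -0.64 without mice 1 and 4, so the relation rests on mouse 1. Chrdl1, a BMP antagonist, measured 837 ± 58.5 and was detected by all 4 of its probe sets. Nog (noggin) and Chrdl2 were on no array above background, Chrd (chordin) on 1 and Grem1 (gremlin) on 5.

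Taken by symbol only, Bmp1 is a protease that trims procollagen and cleaves chordin, not a ligand; it measured 124 ± 11.7. Fgfr1op2, a fusion partner of a receptor gene, measured 2045 ± 86.1, and Tgfbrap1, a receptor-associated protein, 969 ± 122. The antisense gene Fgf2os was above background on no array.

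The members as a whole varied little between mice. The median log2 SD of the 47 was 0.14, beside 0.18 for all 11713 detected genes, and 33 of the 47 (70.2%) were under 0.2, beside 57.0% of all. It was 0.19 for the 12 FGF genes and 0.13 for the 32 genes of the TGF-beta/BMP side. Of the 47, 2 exceeded 0.5, Gdf10 (0.60) and Fgf12 (0.50), a share above the 2.92% of all detected genes. Fgf12 is at the limit, and its SD was 0.21 without mouse 6.

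**Figure D4:**
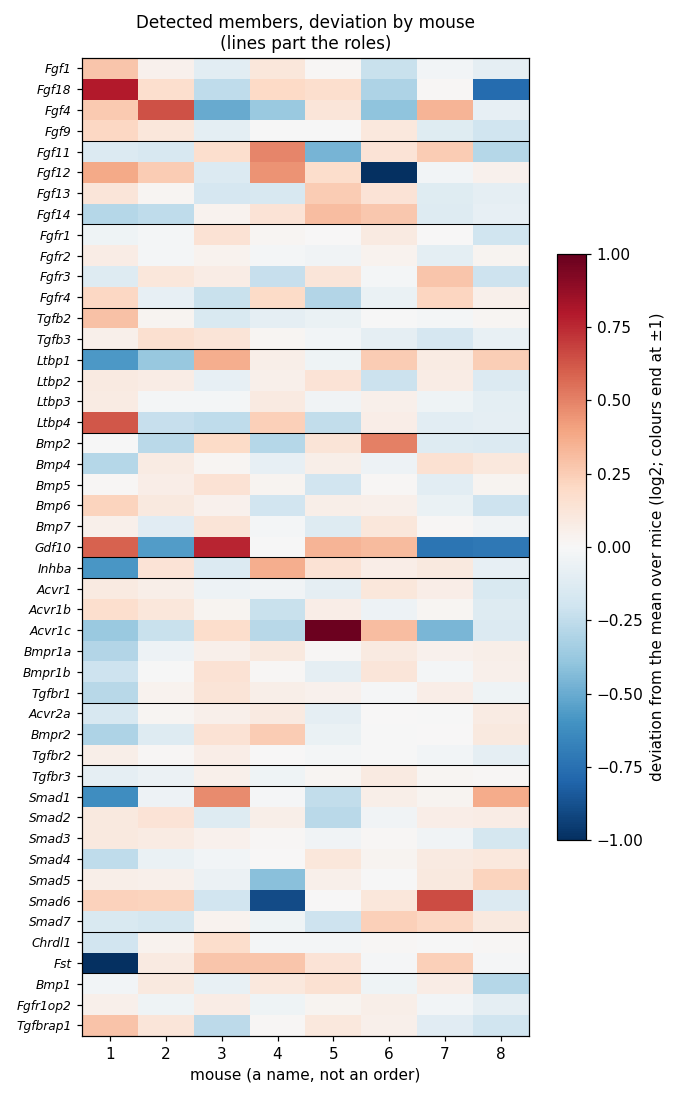
Deviation of each of the 47 detected members (rows, by role) from its mean over the 8 mice (columns), on the log2 scale, red above and blue below; colours end at ±1. Most rows are pale (median SD 0.14), with Fst blue in mouse 1, Fgf12 in mouse 6 and Smad6 in mouse 4, and Acvr1c red in mouse 5.

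Separate probe sets of a gene offered a check on such differences. For 27 members the 2 brightest detected probe sets could be compared over mice, and 4 (14.8%) correlated past the threshold, beside 10.7% of 5127 genes, in a one-sided exact permutation test adjusted over all of these. They were Tgfbr3 (r = 0.92, rho 0.90, adjusted exact p = 0.0138), Smad5 (0.82, 0.83, 0.0211), Fgf12 (0.98, 0.88, 0.0230) and Chrdl1 (0.76, 0.79, 0.0454). Without the 2 mice farthest from the median, r was 0.90, 0.84, 0.86 and 0.64 in that order. Fgf1 just missed (r = 0.82, rho 0.74, adjusted exact p = 0.0503) and gave 0.41 without mice 1 and 6. Smad5 was lowest in mouse 4 by both probe sets, at 851 against 1092 to 1326 and at 742 against 747.5 to 920.1. The median r was 0.29 over the 27 members and 0.33 over all genes. Without mouse 1, 0 members passed, beside 1.69% of all genes, and without mouse 6 only Tgfbr3 did, beside 5.57%. With quantile normalization Tgfbr3 did not pass and the other 3 did, beside 8.78% of all genes.

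Other genes of both pathways, from a list of 76 of which 70 were measured, were detected for 57 (81.4%), beside 64.4% of all genes. Those with the highest signals were Itgav (8551 ± 1319), an integrin chain that activates latent TGF-beta, Twsg1 (8415 ± 469), which binds BMPs together with chordin, the proteoglycan Dcn (7385 ± 816), which binds TGF-beta, and Ccn2 (6426 ± 966), a TGF-beta target. Thbs1, thrombospondin, an activator of latent TGF-beta, had the largest spread among the 57 detected, from 91.2 in mouse 1 to 358 in mouse 6 (log2 SD 0.64). The BMP targets Id1 (674 ± 66.0), Id2 (3848 ± 435), Id3 (2393 ± 242) and Id4 (4818 ± 188) were all detected, and so were the FGF targets Spry2 (3525 ± 329), Dusp6 (2741 ± 276), Etv5 (1278 ± 179.8) and Etv4 (79.6 ± 8.43). Targets not detected were Msx1 (above background on 1 array) and Msx2 (on 0) on the BMP side and Spry3 (on 0) and Spred3 (on 2) on the FGF side. These targets were chosen for naming after their values were seen. The embryonic genes Nodal, Lefty1, Lefty2 and Cer1 were above background on no array.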

How the data were processed

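Total RNA of 8 arrays (8 mice, 1 group) was analysed. The authors deposited linear intensities; the submitters' processing notes name MAS5, without a version. Arrays had been scaled before deposit: leaving out 2% at either end, each averaged 500.0. The file held 0 other sample columns. Gene names came from the platform annotation: it gives 1 gene for 34958 of 45101 probe sets; the 932 with several genes and the 9211 without a name were not used. All 80 members matched a current symbol by Entrez identifier, with 0 changes. Members, gene lists, tests and thresholds were chosen with earlier results of these data known.

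Each gene is represented by the probe set of highest mean signal (_x_at only where no other existed), on the log2 scale with signals under 1 set to 1. The comparison of the 2 brightest detected probe sets of a gene did not apply the _x_at rule. Exact permutation tests used all 40320 pairings of the 8 mice, with Benjamini-Hochberg adjustment over all genes tested and a threshold of 0.05, after tests on simulated data. Assay noise and animal differences are not separated, and the number of arrays limits the precision. In each role the text names the 4 detected members of highest signal, the detected one of largest SD, up to 4 members not detected and those with a called or divided result; further members not detected, probe set details, pathway targets and the adipocyte list were chosen after the values were seen. Alternatives were other scalings, background percentiles (90th, 99th), a pseudocount of 32, rank correlation, other probe set rules and leaving out each mouse. Computations ran in Python 3.11.15 with scipy 1.17.1, pandas 2.3.3, numpy 2.4.6 and, for plots, matplotlib 3.10.9.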

Additional observations from a re-analysis of the deposited data

Results flagged for a closer look

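In 6 of the 47 detected members 1 mouse lay far from the other 7 on the log2 scale, by Dixon's criterion (the gap to the nearest mouse against the range of all 8); chance alone gives about 1 in 20. The share, 12.8%, is close to the 12.5% of all 11713 detected genes, so these flags say nothing particular of the members. Mouse 1 was the far animal in 4 of them (66.7%, beside 68.5% of all such genes): it was low for Fst (939.5), Bmpr1a (2798) and Tgfbr1 (1241) and high for Tgfb2 (4413). Mouse 6 was low for Fgf12 (253), and mouse 4 was low for Smad5 (851). For Fst, Fgf12, Tgfbr1 and Smad5 a second probe set was lowest in the same mouse. For Tgfb2 and Bmpr1a the second brightest probe set did not place the same mouse at that end. For Tgfb2 it placed mouse 1 lowest.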

How the results depend on the processing

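The 47 detected members remained detected under quantile normalization, with arrays scaled to a common median of detected genes, with the 90th percentile as background and without any 1 mouse (47 to 48 members). With the mean of all probe sets 42 of them were detected, without Acvr1c, Fgf11, Fgf14, Fgf4 and Inhba. The count of members with a log2 SD over 0.5 was 2; it was 1 with a common median and with a pseudocount of 32 (Gdf10 alone), 1 at the 99th percentile of background (Fgf12 alone, since Gdf10 was not detected there), and 1 to 3 without 1 mouse. Probe set agreement held for 4 members, for 3 with quantile normalization (without Tgfbr3) and for 1 with rank correlation; without mouse 1 or mouse 6, an alternative chosen after the data were seen, it held for 0 to 1, at 5040 pairings in place of 40320. No member passed with any of the 6 scores under the 4 alternatives tried for them. Leaving out mouse 1 moved the SD of 8 members by over 1.5 times, more than any other mouse. Without mouse 5 the SD of Fgf12 was 0.76, as another of its probe sets was then the brightest. Members near the thresholds, such as Fgf4, Fgf14, Acvr1c and Inhba, are limited by signal over background. No paired analysis was possible because the labels give 1 group only.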

Other observations

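Probe sets of 1 gene differed in how they placed mouse 1. The _x_at probe set of Smad7, used above only in the comparison of probe sets, read 934 in mouse 1 and 1494 to 2193 in the others. The probe set used for the signal of the gene read 1114 in mouse 1 within a range of 1072 to 1462. The third probe set of Smad5 read 152 in mouse 1 and 237 to 412 in the others, whereas the brightest read 1180.0 there within 851 to 1326. For Bmpr2, a BMP receptor, both detected probe sets were lowest in mouse 1, at 3353 against 3794 to 4957 and at 54.7 against 105 to 143. For Chrdl1 the brightest probe set was lowest in mouse 1 (730.4), and the third was highest there (339).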
